A study of Mus musculus domesticus with 18 samples.

Results

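Immediate early and stress transcription genes were followed in the livers of wild house mice, Mus musculus domesticus, all male, caught at high and low altitude. The 10 genes were Fos, Fosb, Jun, Junb, Egr1, Atf3, Ier2, Ier3, Gadd45g and Gadd45b. Every probe set annotated to only 1 of these symbols was taken, which gave 13 of the 45037 probe sets compared: 3 for Gadd45b, 2 for Jun and 1 for each of the other 8 genes. The high altitude group held 9 mice from La Paz, Bolivia, at 3600 m, and the low altitude group 9 mice from Lima, Peru, at 100 m. Each group came from 3 trapping locations, A, B and C, with 3 mice per location, so that high C1 is mouse 1 of high altitude location C. Locations of the same letter at the 2 altitudes are different places. Each liver gave 1 Affymetrix mouse array, and age, treatment and time of death are not given in the labels. The strain label names C57BL/6J, whereas the titles and design text name wild mice, and those were followed. Altitude coincided with city and mouse population, so these cannot be told apart.

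Immediate early genes are switched on within minutes of a growth factor, cytokine or stress signal, without new protein synthesis, mostly through MAP kinases acting on the factors SRF, ELK and CREB. Fos and Jun proteins pair to form AP-1, Egr1 is a zinc finger factor, and Atf3 is a stress-induced factor of the ATF family. Ier2 and Ier3 are small early response proteins, and the Gadd45 proteins bind and activate a kinase upstream of JNK and p38. In liver these genes are best known for their burst at the start of regeneration after partial hepatectomy, and because their transcripts are short-lived they also follow feeding, handling and tissue collection.

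All values below are log2 levels after RMA normalization by the authors, given for comparing mice within 1 probe set and not for comparing probe sets. Whether sequence differences between these mice and the array's probes alter the signal was not tested, and altitude coincides with mouse population, so such an effect and a difference in RNA cannot be told apart. The 10 genes were read in tissue with strong liver markers: Alb averaged 14.82 over the 18 arrays, and the mean of 8 hepatocyte markers lay between 13.7 and 13.9 in both groups. The lowest correlation between 2 arrays was 0.976, and 0 pairs of arrays held identical values. By mean level 12 of the 13 member probe sets lay above the median probe set level of 5.31. The exception was Fosb at 4.07, at the 24.4 percentile. Atf3 lay almost at that median, with a mean of 5.31.

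Fos encodes the dimer partner of Jun and is the classic immediate early gene. In high altitude mice it stood at 6.06, 5.88 and 6.04 in location A, 6.31, 5.69 and 6.13 in B, and 6.57, 6.32 and 6.26 in C. In low altitude mice it stood at 5.49, 5.83 and 5.40 in A, 5.54, 5.87 and 5.38 in B, and 5.76, 6.31 and 5.89 in C. Of the 9 high altitude mice 8 exceeded the mean of the low altitude mice, and high B2 was the exception. The groups overlapped: low C2 lay among the highest high altitude mice, and high B2 and high A2 lay among the low altitude mice. Fos averaged 6.14 ± 0.26 in high and 5.72 ± 0.30 in low altitude mice (SD, n = 9 each), a log2 difference of 0.42 ± 0.12 (SE), or 1.34-fold, with a 95% interval from 0.16 to 0.68. This had an unadjusted p of 0.00308 and did not pass limma's test after adjustment over all probe sets (adjusted p = 0.18). All 3 high location means, 5.99, 6.04 and 6.38, lay above the low location means of 5.57, 5.60 and 5.99, although high A and low C differed by far less than the spread within a location.

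Fosb, which encodes a second Fos family partner of Jun, lay between 3.60 and 4.41 at high and between 3.72 and 4.42 at low altitude, with medians of 4.13 and 4.16. Its difference of 0.04 ± 0.10 (SE, adjusted p = 0.947) was smaller than the spread between mice, at a level below that of most probe sets.

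Jun, the other partner in the classic AP-1 dimer, was read by a pair of probe sets that followed each other closely over the 18 mice (r = 0.937). With the brighter one, 1417409_at, high altitude mice stood at 7.81, 7.87 and 7.17 in location A, 8.10, 6.86 and 7.77 in B, and 7.25, 9.41 and 7.22 in C. Low altitude mice stood at 6.88, 7.41 and 7.96 in A, 7.43, 7.97 and 6.86 in B, and 6.76, 8.27 and 7.73 in C. High C2 stood above all other mice by more than 1 log2 unit, the other mice of location C lay in the lower part of the range, and the groups overlapped almost entirely. The mean was 7.72 ± 0.75 in high and 7.47 ± 0.55 in low altitude mice (SD, n = 9 each), a difference of 0.25 ± 0.28 (SE, adjusted p = 0.848). The other probe set, 1448694_at, gave 0.29 ± 0.22 (SE, adjusted p = 0.719). Without high C2 these differences were 0.03 and 0.13.

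Junb encodes an AP-1 subunit that can weaken as well as replace Jun. High altitude mice ranged from 6.14 to 7.80 with a median of 6.65, and low altitude mice from 6.43 to 7.51 with a median of 6.98. The lowest mice, high C3 and high B2 at 6.14 and 6.25, and the highest, high B3 and high B1 at 7.80 and 7.78, were all from high altitude, and the means were close at 6.93 ± 0.66 against 6.98 ± 0.31 (SD, n = 9 each). The difference was -0.05 ± 0.22 (SE, adjusted p = 0.973).

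Egr1 had the widest range of the 10 genes, 4.996 log2 units between the highest and the lowest mouse, or 31.9-fold. Without high C1 its range was 2.71 log2 units, or 6.56-fold, and that of Gadd45g was 2.76. High altitude mice stood at 6.54, 6.42 and 7.64 in location A, 6.59, 7.23 and 6.94 in B, and 10.29, 8.003 and 7.68 in C. Low altitude mice stood at 7.29, 6.79 and 6.25 in A, 6.35, 7.37 and 5.67 in B, and 5.29, 7.43 and 6.30 in C. All 3 mice of high location C lay above every low altitude mouse, as did high A4, and the other 5 mice of high locations A and B lay within the low altitude range. The mean was 7.48 ± 1.19 in high and 6.53 ± 0.76 in low altitude mice (SD, n = 9 each), a difference of 0.95 ± 0.42 (SE), or 1.94-fold, with a 95% interval from 0.08 to 1.83. It had an unadjusted p of 0.0337 and did not pass limma's test (adjusted p = 0.437). Without high C1 the difference was 0.60, and without location C of high altitude it was 0.37.

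Atf3, which is induced by many stresses and represses as well as activates transcription, lay between 4.93 and 5.71 at high and between 5.05 and 5.85 at low altitude. Its medians were 5.40 and 5.19, and low B2 stood highest of all 18 mice. The difference was 0.09 ± 0.11 (SE, adjusted p = 0.862). It was 0.16 without low B2 and 0.05 without high A1.

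Ier2, a nuclear early response protein, ranged from 8.01 to 8.84 in high and from 7.93 to 8.69 in low altitude mice. Its means were nearly equal at 8.34 ± 0.27 and 8.34 ± 0.35 (SD, n = 9 each), and the 95% interval of the difference ran from -0.28 to 0.30. Ier3, an early response protein linked to cell survival, ranged from 5.24 to 6.21 at high and from 5.14 to 5.73 at low altitude. High B1 stood highest, and the difference of 0.07 ± 0.11 (SE) did not pass (adjusted p = 0.90).

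Gadd45g was the gene with the largest altitude difference among the 10. High altitude mice stood at 7.65, 8.60 and 6.87 in location A, 8.95, 7.49 and 9.18 in B, and 9.67, 7.42 and 7.91 in C. Low altitude mice stood at 7.31, 7.57 and 6.62 in A, 7.10, 6.42 and 7.70 in B, and 6.89, 7.82 and 6.90 in C. The 5 highest mice, high C1, high B3, high B1, high A2 and high C3, were from high altitude, while high A4 lay below the mean of the low altitude mice and the groups overlapped. The mean was 8.19 ± 0.94 in high and 7.15 ± 0.49 in low altitude mice (SD, n = 9 each). The difference of 1.04 ± 0.32 (SE), 2.06-fold, had a 95% interval from 0.39 to 1.70 and an unadjusted p of 0.00351, and it did not pass limma's test (adjusted p = 0.19). Its 3 high location means, 7.71, 8.54 and 8.33, lay above the low location means of 7.17, 7.08 and 7.204.

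Gadd45b is its close relative. The brightest of its 3 probe sets, 1450971_at, lay between 6.55 and 7.45 at high and between 6.40 and 7.51 at low altitude, with high C1 and low C2 apart at the top. Its difference was -0.02 ± 0.14 (SE, adjusted p = 0.985), and that of 1449773_s_at, which followed it over the mice (r = 0.84), was -0.15 ± 0.20 (SE, adjusted p = 0.876). The remaining probe set, 1420197_at, followed them less closely (r = 0.396 and 0.319), spanned only 0.59 log2 units, and differed by 0.12 ± 0.08 (SE, adjusted p = 0.678). Its accession was not given in the annotation used here. Whether Gadd45g and Gadd45b differ in their altitude difference was not tested.

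**Figure D1:**
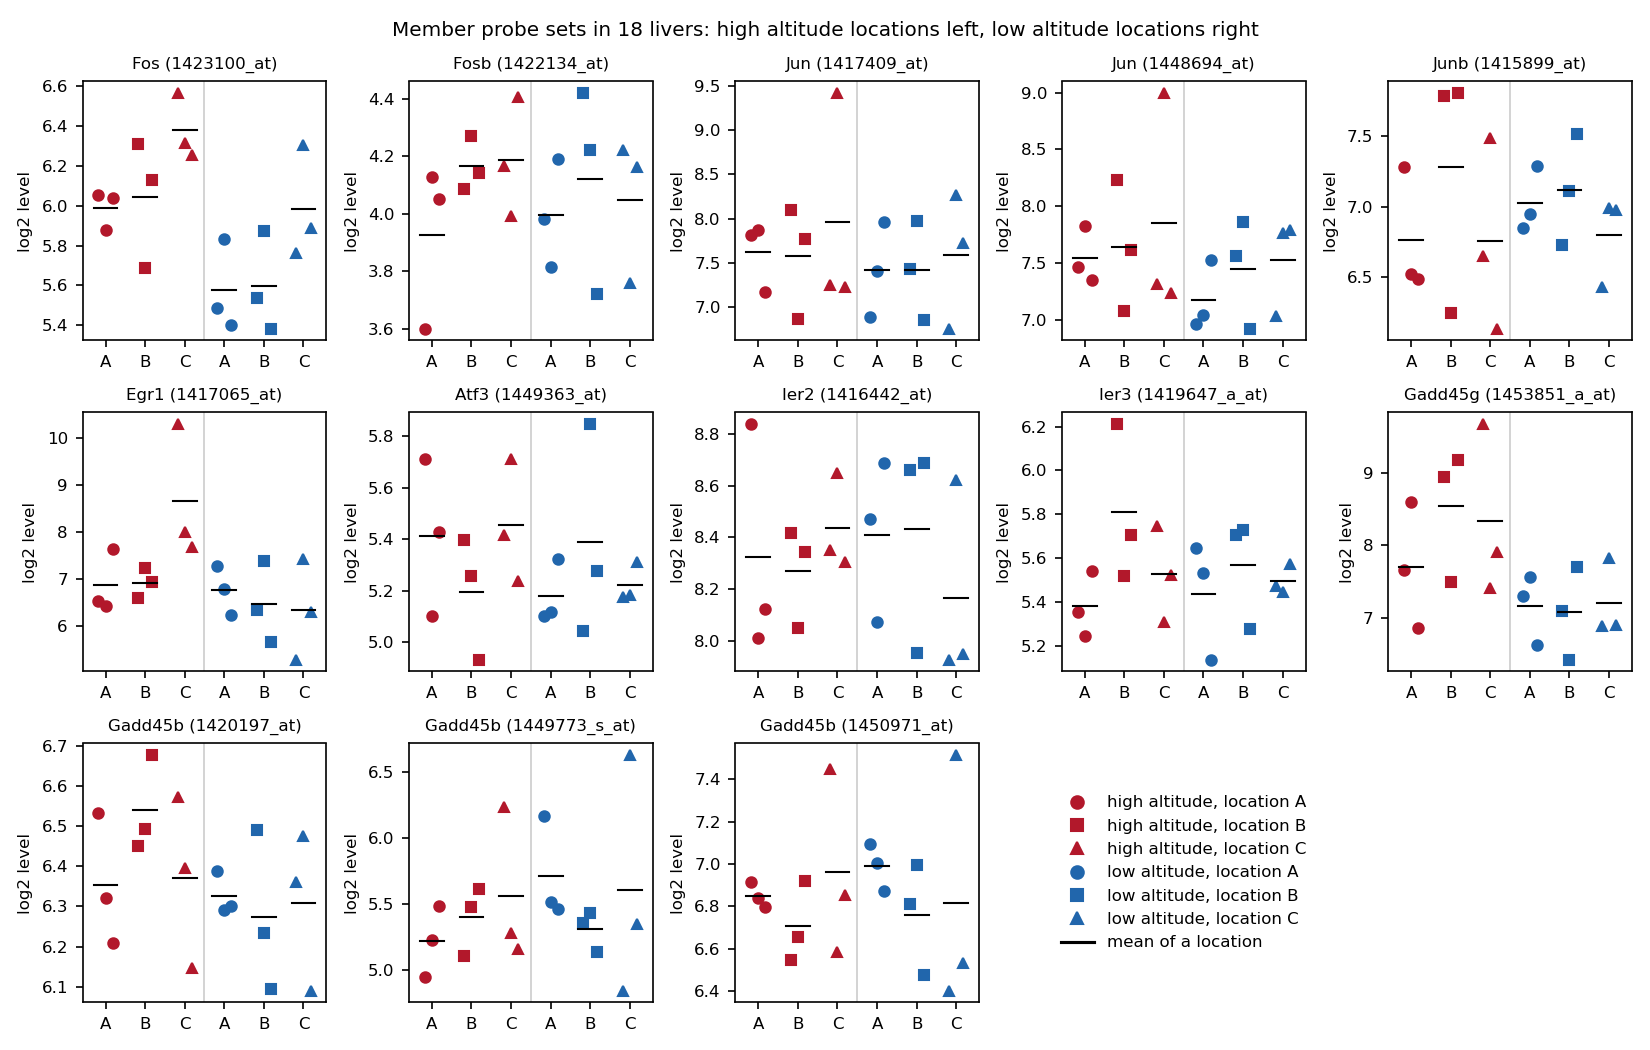
Log2 level of each of the 13 member probe sets in 18 mice; each panel is 1 probe set with its own vertical scale, red symbols are high altitude mice, blue symbols low altitude mice, and horizontal bars are means of the 3 mice of a location. Egr1 in high C1 (10.29) and Jun in high C2 (9.41) stand apart, and the groups overlap in every panel.

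Over the whole set, 0 of 13 member probe sets passed the altitude test, against 134 of 45037 probe sets, 0.298%. At an unadjusted p under 0.05 there were 3 of 13, Fos, Gadd45g and Egr1, against 10.1% of all probe sets. All 3 were higher at high altitude, as were 5.11% of all probe sets at that p. Differences were positive for 10 of 13 member probe sets, with a median of 0.09, against 49.8% and a median of 0.00 over all probe sets. The members' median was 0.0514 without high C2, and from 0.0514 to 0.153 without single locations. The 3 high location means lay above the 3 low location means for 5 member probe sets, Fos, Egr1, Gadd45g, Jun 1448694_at and Gadd45b 1420197_at, against 6.53% of all probe sets, and for 0 the other way, against 7.07%. The 9 high altitude mice did not all lie apart from the 9 low altitude mice for any member, as they did for 0.0822% of all probe sets. These shares are descriptions, because the genes were chosen with earlier results of these data known. Nothing in the labels says that mice of 1 location are unrelated, and p-values measure only the spread between these mice. The consensus correlation of locations was -0.00189, so the altitude fit counted mice of 1 location almost as independent. With 1 mean per location, limma gave unadjusted p of 0.000811 for Gadd45g, 0.0214 for Fos and 0.0627 for Egr1. The adjusted p of that fit were 0.279, 0.539 and 0.64.

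**Figure D2:**
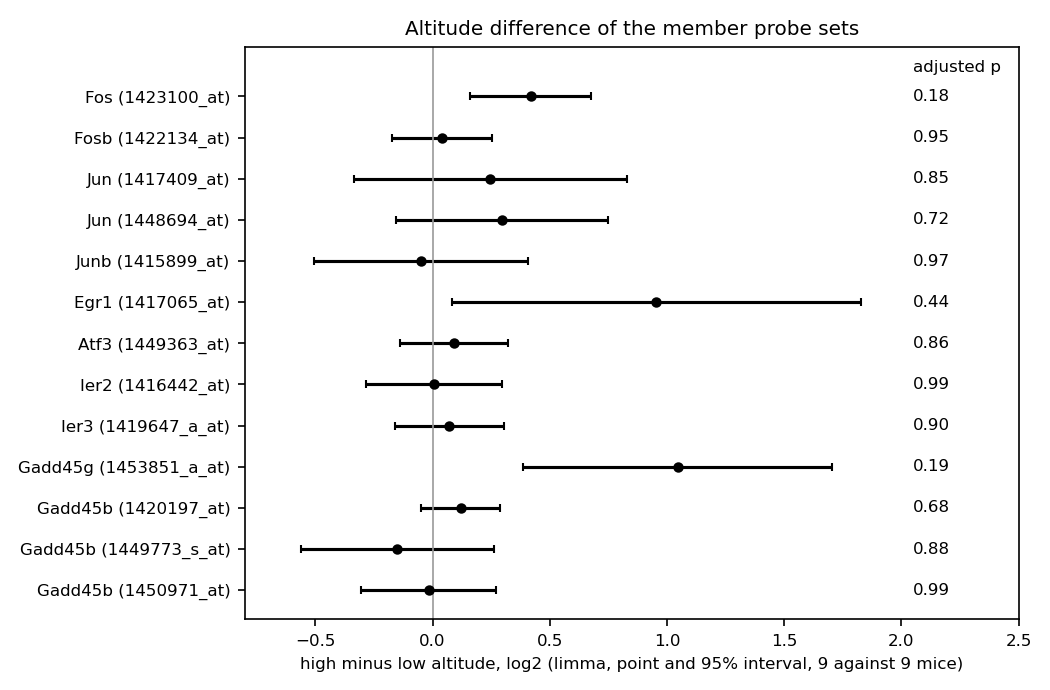
High minus low altitude log2 difference of the 13 member probe sets (points) with 95% intervals from limma (bars, 9 against 9 mice) and the p-value adjusted over 45037 probe sets at the right. The intervals of Fos, Egr1 and Gadd45g lie above 0, and the smallest adjusted p is 0.18.

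The comparison of trapping locations asked whether mice from different places at the same altitude differed in these genes. None of the 13 member probe sets passed limma's F test between the 3 high locations, where 0.167% of all probe sets did, or between the 3 low locations, where 0.0622% did. At an unadjusted p under 0.05 there was 1 of 13 at high altitude, against 8.39% of all probe sets, and 0 of 13 at low altitude, against 6.25%. The 1 was Egr1, which averaged 6.87 ± 0.67 in high A, 6.92 ± 0.32 in B and 8.66 ± 1.42 in C (SD, n = 3 each, limma adjusted p = 0.418). Fos leaned towards location C at both altitudes, with 6.38 ± 0.16 in high C and 5.99 ± 0.28 in low C (SD, n = 3 each), and adjusted p of 0.714 and 0.819. For Ier3 the highest high altitude mean was in location B at 5.81 ± 0.36, against 5.38 ± 0.15 in A and 5.53 ± 0.22 in C (SD, n = 3 each, adjusted p = 0.686).

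The sum of squares of each gene was split into shares for altitude, for location within an altitude and for mice within locations. For most of these genes the larger part lay within locations, Fos and Egr1 being the exceptions. Most independent comparisons in this design are between mice of the same location. The larger part would therefore be expected there even without any effect of altitude or location. The same shares are not given for other probe sets, so these shares are descriptions and do not set the genes apart. The share within locations was 91.8% for Jun, 88.9% for Ier2, 83.4% for Junb and 82.1% for Fosb, while altitude accounted for 3.75%, 0.0121%, 0.244% and 0.768%. Fos had the lowest share within locations at 32.8%, with 38.4% for altitude and 28.8% for location within an altitude. Gadd45g had 56.5%, 35.2% and 8.25%, and Egr1 47.0%, 20.4% and 32.5%.

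The SD between mice of 1 location was 0.887 for Egr1, 0.81 for Gadd45g, 0.745 for Jun and 0.542 for Junb, against a median of 0.171 over all probe sets. To allow for level, probe sets were sorted into 20 bins of equal size by mean level. Within its bin of 2252 probe sets Egr1 stood at percentile 98.6 with 4.11 times the bin's median SD, Gadd45g at 98.1 with 3.49 times, and Jun at 97.6 with 3.21 times. Junb stood at percentile 94.1 and Fosb at 92.5. Atf3, Ier2, Ier3 and Fos lay between percentiles 68.9 and 82.1. The 3 Gadd45b probe sets stood at percentiles 97.4, 81.2 and 35.0 of their bins. The spread of Fos between mice was 1.24 times that of the median probe set of its level. Of the 13 member probe sets 12 had a larger spread than the median of their bin.

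**Figure D3:**
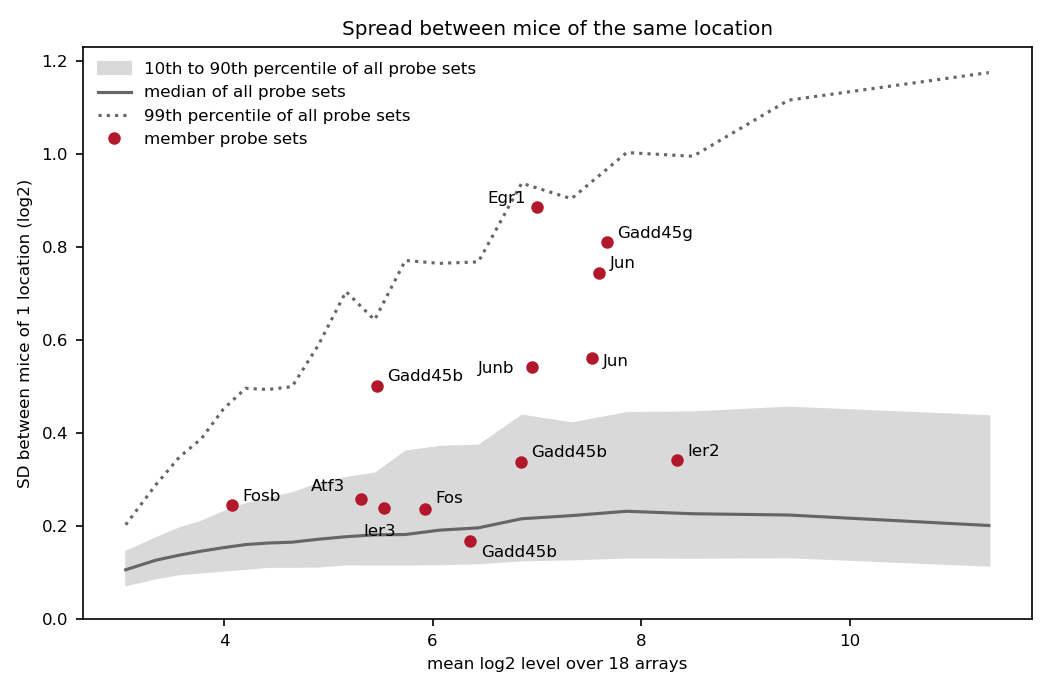
SD between mice of the same location (log2, pooled over 6 locations) against the mean log2 level over 18 arrays; the grey band, line and dotted line give all 45037 probe sets in 20 bins of level, and red points the 13 member probe sets. Egr1 (0.887), Gadd45g (0.81) and Jun (0.745) lie highest, all below the dotted 99th percentile line, and 1 Gadd45b probe set lies below the median line.

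The mice did not share a single pattern of high or low levels. High C1 was among the top 3 mice for Fos, Egr1, Ier3, Gadd45g and Gadd45b, but its Jun level of 7.25 and Junb level of 6.65 lay below their means. High C2 was among the top 3 for Fos, Jun, Egr1 and Atf3, with Gadd45g and Gadd45b below their means at 7.42 and 6.59. High B1 was among the top 3 for Fos, Jun, Junb, Ier3 and Gadd45g, and its Egr1 level of 6.59 lay below the mean. At the other end, low B3 was among the lowest 3 mice for 6 of the 10 genes, and yet among the top 3 for Junb and Ier2, and low C1 was among the lowest 3 for 5 genes. The same counts were not taken for other genes, so they are descriptions and do not set any mouse apart.

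**Figure D4:**
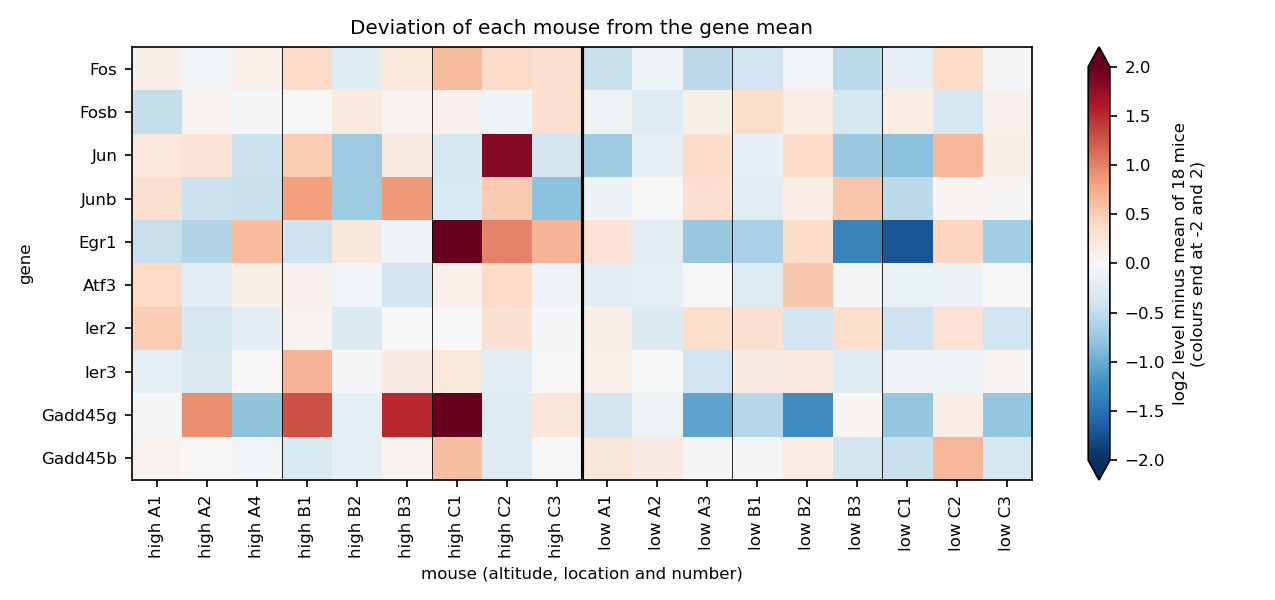
Log2 level minus the mean of 18 mice for the 10 genes (rows, 1 probe set each) in each mouse (columns, high altitude left of the thick line); red is above and blue below the mean, and colours end at -2 and 2. High C1 is red for Egr1 and Gadd45g and pale blue for Jun, and high C2 is red for Jun and Egr1.

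Co-variation between the genes was measured after subtracting each location's mean, which removes differences between altitudes and locations, over the 45 pairs of the 10 genes with the brightest probe set of each. In all, 27 of 45 correlations were positive and the median was 0.134. None passed the exact permutation test within locations after adjustment over the 45 pairs, where the smallest adjusted p was 0.107, and 7 had an unadjusted p under 0.05. Without subtracting location means 0 of 45 passed and 5 had an unadjusted p under 0.05. The 45 pairs share genes, and the same counts were not taken for pairs of other genes. The counts are therefore descriptions and do not set the 10 genes apart.

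The strongest relation was between Egr1 and Gadd45b. Their location-centred values gave r = 0.80 and rho = 0.78 over 18 mice (exact permutation p = 0.00474 and 0.00394, adjusted p = 0.107 and 0.0887). It was 0.726 within the high and 0.891 within the low altitude mice, and 0.666 without high C1 and low C2, the mice farthest out on Egr1. On the values as deposited, r was 0.642 and rho 0.513 (permutation p = 0.00472 and 0.0316, adjusted p = 0.106 and 0.308), and r dropped to 0.338 without high C1 and low C1. The relation passed the adjusted threshold in 2 of the alternatives, with r = 0.84 on the mean of the probe sets of each gene (exact permutation, adjusted p = 0.0328) and r = 0.734 on altitude-centred values (permutation, adjusted p = 0.0383).

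Fos leaned the same way as this pair. Its location-centred r was 0.631 with Gadd45b and 0.557 with Egr1 (exact permutation p = 0.0249 and 0.0284, adjusted p = 0.213 for both). The rho were 0.641 and 0.622 (exact permutation p = 0.0291 and 0.0181, adjusted p = 0.218 and 0.203). Within high altitude mice these r were 0.344 and 0.28, against 0.809 and 0.822 within low altitude mice, a contrast that was not tested. Without low B2 and low C2 they were 0.468 and 0.396. Fos and Egr1 as deposited gave r = 0.663 and rho = 0.651 (permutation p = 0.00125 and 0.00392, adjusted p = 0.0563 and 0.176), and 0.454 without high C1 and low B3. Fos and Gadd45b as deposited gave only r = 0.359 and rho = 0.203 (permutation p = 0.142 and 0.416, adjusted p = 0.491 and 0.766), and 0.0451 without the same mice. With Ier3, Fos had r = 0.616 and rho = 0.575 (exact permutation p = 0.0375 and 0.0361, adjusted p = 0.241 and 0.232), and 0.696 without low B2 and low C2. As deposited this was r = 0.37 and rho = 0.304 (permutation p = 0.132 and 0.22, adjusted p = 0.491 and 0.762), and 0.234 without high C1 and low B3.

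Jun and Junb had r = 0.686 and rho = 0.67 (exact permutation p = 0.0156 and 0.0141, adjusted p = 0.175 and 0.203), which did not pass. This r was 0.807 within high and 0.391 within low altitude mice, and 0.588 without high C2 and low C1. As deposited it was r = 0.534 and rho = 0.569 (permutation p = 0.0212 and 0.016, adjusted p = 0.2385 and 0.308), and 0.456 without the same mice. Jun and Egr1, the genes with a single very high mouse each, did not have that mouse in common: Egr1 peaked in high C1 and Jun in high C2.

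Junb and Fosb, the latter at a low signal, had r = -0.62 and rho = -0.715 (exact permutation p = 0.00388 and 0.00285, adjusted p = 0.107 and 0.0887), and -0.548 without high A1 and low B3. As deposited this was r = -0.449 and rho = -0.476 (permutation p = 0.062 and 0.0479, adjusted p = 0.369 and 0.308), and -0.348 without the same mice. Without low A3 this pair passed on location-centred values at r = -0.706 (exact permutation, adjusted p = 0.0116). Junb and Ier2 gave r = 0.548 and rho = 0.525 (exact permutation p = 0.014 and 0.0273, adjusted p = 0.175 and 0.218), and 0.526 without high B2 and high C2. As deposited they gave r = 0.481 and rho = 0.507 (permutation p = 0.0455 and 0.03465, adjusted p = 0.369 and 0.308), and 0.573 without high B3 and high C3. An array measure was set beside these 3 genes. The SD of all log2 values on an array, which ran from 2.12 to 2.24, had a location-centred r of 0.793 with Ier2, 0.708 without high A1 and low B2. It was 0.736 with Junb and -0.669 with Fosb (exact permutation p = 0.00592 and 0.0211, adjusted p = 0.325 and 0.566). As deposited, rho with the array SD was -0.744 for Fosb and 0.734 for Ier2 (permutation p = 0.00077 and 0.00074), and both passed (adjusted p = 0.04235 each). The r as deposited were -0.684 and 0.74 (permutation, adjusted p = 0.0696 and 0.0638). For Junb they were r = 0.619 and rho = 0.577 (permutation, adjusted p = 0.152 and 0.31). On location-centred values the relation with Ier2 (rho = 0.808) was the only 1 of 110 between the 10 genes and 11 technical or cell marker measures to pass the adjustment (exact permutation p = 0.000214, adjusted p = 0.0236, and 0.0307 for rho). With the array SD regressed out, a step chosen after seeing the data, r was 0.796 for Egr1 and Gadd45b, 0.675 for Jun and Junb, 0.655 for Fos and Gadd45b, 0.621 for Fos and Ier3, 0.594 for Fos and Egr1, -0.25 for Fosb and Junb and -0.09 for Junb and Ier2. These values have no test, and the part of the array SD in the relations was not tested.

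**Figure D5:**
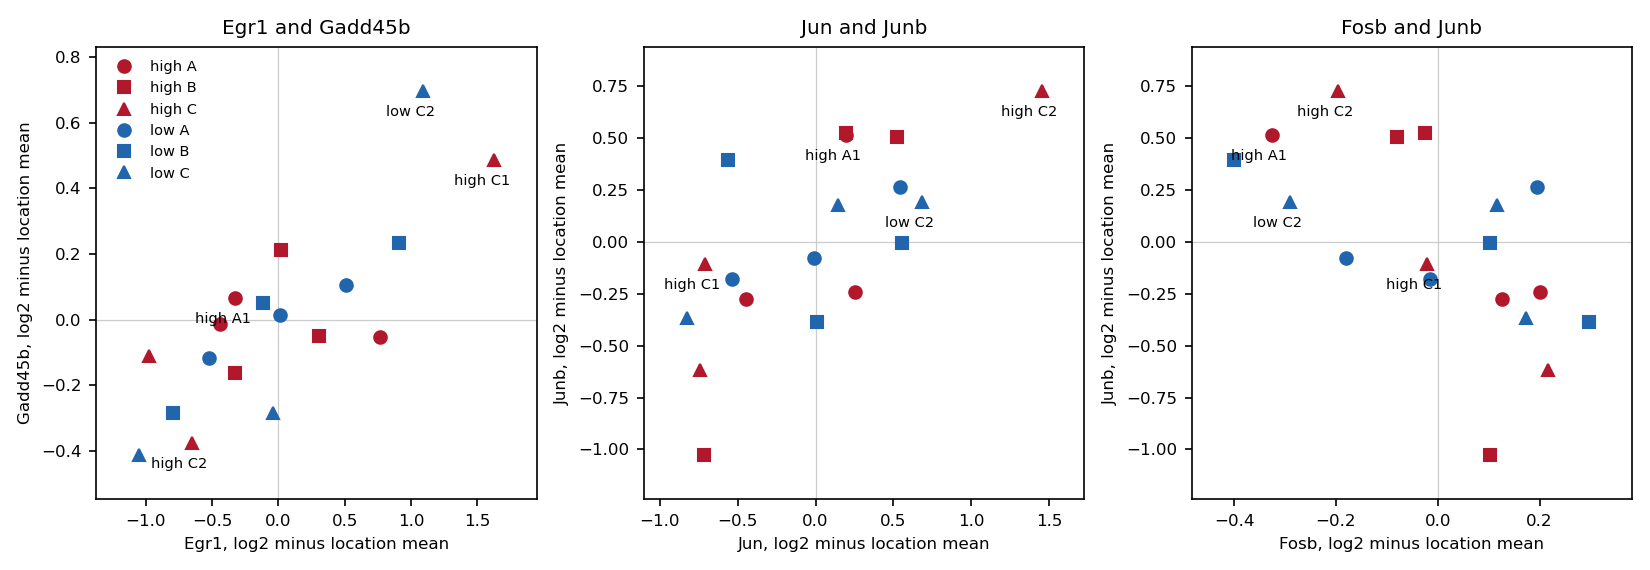
Log2 levels minus the location mean for 3 pairs of genes in 18 mice (1 symbol per mouse, red high altitude, blue low altitude, with circles, squares and triangles for locations A, B and C). Egr1 with Gadd45b (r = 0.80) and Jun with Junb (r = 0.686) slope upwards and Fosb with Junb (r = -0.62) slopes downwards, and high C1, high C2, low C2 and high A1 are named.

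Cell markers and RNA integrity were set beside these genes. The 10 Kupffer cell and macrophage markers, led by Csf1r, all had positive altitude differences with a median of 0.37, 0 of 10 past the adjusted test, and a mean level per mouse from 8.68 to 10.12 at high and from 8.48 to 9.64 at low altitude. That median was 0.213 without high A1 and 0.501 without low B3 at the extremes for single mice, 0.0922 without high location A, 0.152 without low location C and 0.594 without low location B. Their mean level had a location-centred r of 0.598 with Atf3 (rho = 0.573, exact permutation p = 0.0413 and 0.054, adjusted p = 0.566 and 0.723) and of -0.193 with Fos, -0.07 with Egr1 and -0.363 with Gadd45g. With Fosb it was -0.542 (rho = -0.55, exact permutation p = 0.0419 and 0.0562, adjusted p = 0.566 and 0.723), or -0.404 without high A1 and low B3. With Atf3 it was 0.883 within high and 0.0735 within low altitude mice, and 0.65 without high A1 and low B2. Lymphocyte markers had r = 0.702 with Atf3 (rho = 0.538, exact permutation p = 0.048 and 0.0847, adjusted p = 0.566 and 0.723), or 0.578 without high A1 and low B2. The r with Atf3 was 0.404 within high and 0.923 within low altitude mice. Lymphocyte markers had r = -0.511 with Gadd45g (rho = -0.715, exact permutation p = 0.0489 and 0.0122, adjusted p = 0.566 and 0.449), or -0.447 without high B2 and high C1. As deposited this was r = -0.112, or 0.038 without high B3 and high C1. Atf3 as deposited had r = 0.422 with lymphocyte markers, or 0.133 without high A1 and low B2. With macrophage markers it had 0.60, or 0.485 without the same mice. Fosb and macrophage markers as deposited gave r = -0.365, or 0.0515 without high A1 and low B3. In whole liver, more cells of a type and more RNA per cell cannot be told apart. RNA integrity was read from the Actb controls as their 3 prime signal less their 5 prime signal, which was 1.40 ± 0.32 in high and 1.21 ± 0.17 in low altitude mice (SD, n = 9 each). It was highest in high B1 at 2.02, the mouse with the highest Ier3, and its r with Ier3 was 0.589 (rho = 0.587, exact permutation p = 0.0268 and 0.0242, adjusted p = 0.566 and 0.666), or 0.473 without high B1 and low A3. The same measure of the Gapdh controls had r = -0.633 with Ier2 (rho = -0.579, exact permutation p = 0.0383 and 0.0727, adjusted p = 0.566 and 0.723), or -0.626 without high A1 and low B2. With the Actb measure as a covariate the altitude difference was -0.06 for Ier3, 0.41 for Fos, 1.09 for Egr1 and 0.88 for Gadd45g. The part of these measures in the results was not otherwise tested.

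Relatives and partners of the 10 genes were read with 1 probe set per gene. For such probe sets, 0.363% of 18193 genes were called for altitude, 51.6% had a positive difference and the median difference was 0.00. Among other AP-1, ATF and EGR factors 0 of 23 measured genes passed, with 15 positive and a median of 0.06. The smallest p belonged to Batf2 and Batf, leucine zipper partners of Jun in immune cells, at 0.22 ± 0.07 and 0.16 ± 0.07, and to Jdp2, a Jun-binding repressor, at 0.24 ± 0.12 (SE, adjusted p = 0.221, 0.40 and 0.525).

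Among 42 other early response genes 0 passed, 30 were positive and the median was 0.14. Dusp2, a phosphatase that switches off MAP kinases, averaged 6.39 at high and 6.08 at low altitude, a difference of 0.30 ± 0.07 (SE, adjusted p = 0.0833), the smallest adjusted p of this list. Ier5, of the same family as Ier2, differed by 0.61 ± 0.18 and the shear-responsive factor Klf2 by 0.42 ± 0.13 (SE, adjusted p = 0.161 and 0.186). Ier5 passed when the Actb measure was a covariate, at 0.81 (limma adjusted p = 0.0197). Differences in this list ran from -0.76 to 0.69.

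Upstream, 0 of 23 measured kinases and activators passed, with 16 positive and a median of 0.13. Mrtfa, a coactivator of SRF, differed by 0.27, Elk4, a partner of SRF, by 0.25, and the p38 gene Mapk14 by 0.17 (adjusted p = 0.354, 0.444 and 0.599). Of 13 measured p53 and DNA damage targets 0 passed, 11 were positive and the median was 0.20. Gadd45a, the third Gadd45 gene, averaged 4.59 at high and 5.11 at low altitude, a difference of -0.52 ± 0.23 (SE, adjusted p = 0.436) at a level below the median probe set. Sesn1 differed by 0.30 and the antiproliferative gene Btg2 by 0.46 (adjusted p = 0.353 and 0.458). Of 15 ATF4 and heat shock targets 0 passed and 6 were positive, with a median of -0.02. Chac1, an ATF4 target that degrades glutathione, differed by 0.45, the small heat shock gene Hspb1 by 1.22 ± 0.47 (SE) and Hspa1b by -0.91 ± 0.49 (SE), with adjusted p of 0.303, 0.339 and 0.565. Of 14 light and clock genes 0 passed and 5 were positive, with a median of -0.08. Hlf differed by -0.40, the repressor gene Nr1d1 by -0.43 and Dbp, a strongly rhythmic output of the clock, by -1.39 ± 0.75 (SE), with adjusted p of 0.19, 0.406 and 0.564.

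The remaining marker lists were read in the same way, and 0 genes of any of them passed. Medians were 0.14 for T, NK and B lymphocyte markers, 0.08 for endothelial, 0.07 for neutrophil, 0.01 for hepatocyte, -0.01 for stellate and fibroblast, -0.02 for erythroid and -0.04 for cholangiocyte markers. Differences were positive for 6 of 9 lymphocyte, 4 of 8 endothelial, 5 of 8 neutrophil and 5 of 8 hepatocyte markers. They were positive for 4 of 8 stellate and fibroblast, 1 of 4 erythroid and 2 of 5 cholangiocyte markers. Genes are named here by their p and do not stand for their list. The smallest p in each belonged to Cd5 (0.34), Vwf (0.83, adjusted p = 0.0708), Camp (0.12), Serpina1c (-0.25), Acta2 (0.34), Alas2 (-0.18) and Cftr (-0.09). Next came Cd2 (0.25), Lyve1 (-0.73), Ngp (0.18), Glul (0.24), Col3a1 (-0.45), Hba-a1 (-0.03) and Sox9 (0.09), and after these Nkg7 (0.69), Clec4g (-0.22), Csf3r (0.13), Alb (0.04), Rgs5 (0.20), Slc4a1 (0.06) and Krt19 (-0.11). Of the macrophage markers Csf1r differed by 0.56, C1qc by 0.49 and C1qa by 0.45, with adjusted p from 0.168 to 0.357.

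The genes whose pattern was most like the mean of the 10 were looked for among 12213 other genes above the median probe set level, by the correlation of their location-centred level with the mean location-centred level of the 10 genes over 18 mice. The mean was not scaled, so genes with a larger spread between mice, such as Egr1, Gadd45g and Jun, counted for more. The 8 highest were Kdm6b (r = 0.894), a histone H3 lysine demethylase, Mfng (0.879), Top3b (0.855), Hnrnpa1 (0.848), Scarf1 (0.824), Chic2 (0.824), Gata6 (0.804) and Btg2 (0.804). These r describe the genes found by the search and have no test. Kdm6b was closest to Gadd45b (0.851), Fos (0.802) and Egr1 (0.766) and had an r of 0.421 with Jun, whereas Btg2 was closest to Jun (0.695). All 8 had a negative r with Fosb, from -0.612 for Mfng to -0.241 for Chic2. Fosb itself had a negative r with Egr1, Gadd45g and Jun, which counted for more in the mean, so this sign follows in part from the search. Scarf1 had an r of 0.0138 with Ier3 and Gata6 of -0.141 with Atf3. The altitude differences of the 8 genes ran from -0.10 for Scarf1 to 0.46 for Btg2, and 0 of 8 passed the altitude test.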

How the data were processed

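Per the labels' protocols, total RNA from each liver was made into biotinylated cRNA for 1 Affymetrix mouse array. The deposited log2 values came from the authors' use of RMA and affy, per the submitters' processing notes, with versions not given in the sources used here. Of 45101 probe sets 64 controls were left out of the tests. Genes came from GEO's platform annotation, in which 34945 probe sets have 1 symbol, 932 several and 9160 none. The Entrez number of 34754 probe sets was found in RefSeq's gene table (assembly GRCm38.p6), and 0 symbols changed. Where 1 probe set per gene was needed, the brightest was used.

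limma 3.58.1 (R 4.3.3) fitted altitude with location as a random block (consensus correlation -0.00189), a mean-variance trend and Benjamini-Hochberg adjustment over 45037 probe sets at 0.05, two-sided. Locations were compared by limma's moderated F test. Correlations used 46656 exact permutations within locations, or 100000 random ones on pooled values. Both steps were tested on simulated data. Precision is limited by how many arrays there are, with a median SE of 0.0819 per difference over all probe sets. For the member probe sets the SE ran from 0.08 (Gadd45b 1420197_at) to 0.42 (Egr1). The labels do not say that mouse numbers pair the mice, and the main fit did not pair them. Named genes are every member probe set, members of each list past the test and the 3 with the smallest p, and the 8 genes most like the mean of the 10. Members and lists were chosen with earlier results of these data known. Listed genes not analysed here are left out of the counts. Alternatives covered location, mouse number, array weights, level, probe set choice, normalization, moderation, RNA integrity, thresholds and leaving out mice or locations. Fits without mice or locations kept the consensus correlation of all mice, and leaving out high C1 and C2 together and regressing out the array SD were added after seeing the data.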

Additional observations from a re-analysis of the deposited data

Results flagged for a closer look

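In 4 of the 26 groups of 9 mice looked at (13 probe sets at 2 altitudes) 1 mouse lay far from the others by Dixon's criterion, which flags about 1 in 20 groups by chance. Egr1 in high C1, at 10.285, lay 0.591 of the group's range above the next high altitude mouse at 8.003. The same mouse, high C1, was highest for Gadd45b 1450971_at at 7.449, with the next high altitude mouse at 6.92. Jun 1417409_at was highest in high C2 at 9.415, with the next high altitude mouse at 8.10. Atf3 was highest in low B2 at 5.847, with the next low altitude mouse at 5.32. The other probe sets of Jun and Gadd45b were not flagged. Jun 1448694_at was also highest in high C2, at 8.99, and Gadd45b 1449773_s_at stood at 6.24 in high C1. With Gadd45b 1420197_at high C1 stood at 6.57, below high B3 at 6.68.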

How the results depend on the processing

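Under 37 alternatives for altitude, 0 member probe sets were called in any. All 13 entered each, except 12 when probe sets below the median level were left out and 10 with 1 probe set per gene, and the smallest adjusted p of a member was 0.0964, for Fos without low C2. Likewise 0 were called under 23 alternatives for the locations of each altitude. Differences kept their sign in every alternative run for 8 probe sets: Fos from 0.30 to 0.55, Gadd45g from 0.86 to 1.29, Egr1 from 0.37 to 1.26, both Jun probe sets, Atf3, and Gadd45b 1420197_at and 1449773_s_at. Without single mice 1449773_s_at ran from -0.26 to -0.02. Signs of the other 5, none called anywhere, turned. Leaving out single mice gave -0.0553 to 0.0505 for Ier2, -0.1566 to 0.0516 for Junb, -0.0924 to 0.0658 for Gadd45b 1450971_at, -0.0028 to 0.1005 for Fosb and -0.0078 to 0.1133 for Ier3. Ier2 was -0.0576 with array weights, -0.0032 with arrays centred on their median, -0.0398 without high location C, -0.0789 without low C and -0.0385 without high C1 and C2 together. Junb was 0.0264 with mouse number as a replicate block, 0.0362 without high location A, 0.0403 without high C and 0.0197 without low B. With the Actb covariate Gadd45b 1450971_at was 0.0618, Fosb -0.0446 and Ier3 -0.0565. Without locations, Gadd45b 1450971_at was 0.0498 (high B) and 0.0514 (low A), Fosb -0.0085 (high C) and Ier3 -0.0475 (high B). The cause of these turns was not tested.

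Without high C1 and C2 together, chosen after seeing the data, the differences were 0.48 for Egr1, 0.07 for Jun 1417409_at, 0.94 for Gadd45g and 0.33 for Fos. Of the other lists' genes, 1 was called with the Actb covariate, Ier5, 2 at an adjusted p under 0.1, Vwf and Dusp2, and 0 to 1 without single mice, Vwf without high A2 (adjusted p = 0.0408). Of 45 gene pairs 1 passed on altitude-centred values and 1 with the mean of a gene's probe sets, Egr1 and Gadd45b both times, and 0 to 1 without single mice. With the array SD regressed out Junb and Ier2 turned to -0.0862. Probe sets called over the whole table were 134, but 0 with 1 mean per location, 61 with the replicate block, 251 with array weights, 66 with 1 probe set per gene, 321 at 0.1, 73 to 203 without single mice and 39 to 159 without locations. Between high locations 75 were called (31 to 314) and between low locations 28 (13 to 107). The labels do not say that equal mouse numbers pair the mice. Deviations of equal numbers in different locations correlated at -0.013 on average, from -0.365 to 0.389, and 3 of 18 mice correlated best with their own number. Whether the number follows an order of processing was not tested. Fosb, at a low signal, and the number of arrays limit what can be detected.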
